A study of Mus musculus with 23 samples.

Results

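The comparison is that of 4 PS19 hippocampi with 4 wild-type (WT) hippocampi at 9 months of age, which are 8 of the 23 poly(A) RNA libraries of the series, and the members are those libraries the labels name PS19 and WT with replicate numbers 1 to 4. PS19 mice are C57BL/6 animals that carry a human tau transgene with a disease mutation under the mouse prion protein (Prnp) promoter and have both copies of Lsd1, and WT mice are C57BL/6 animals without the transgene. Neither group had received a virus. The other 9-month libraries were 4 of PS19;Lsd1Δ/+ mice (PS19 mice with 1 functional Lsd1 copy) and 2 of Lsd1Δ/+ mice without the transgene. They entered the same fit, and so its scaling, filter on low counts, replicate block and estimate of the spread, but were not themselves compared. A second cohort at 11 months held 3 PS19_HA libraries (PS19 mice with an HA control treatment), 3 PS19_rescue libraries (PS19 mice with an LSD1 virus) and 3 WT_HA libraries (wild-type mice with the HA control), and shares no library with the first. Whether each library is a different mouse is not stated in the labels, so the p-values cover only the spread among these libraries, which may be technical.

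Tau is a microtubule-binding protein of axons. In PS19 mice it becomes hyperphosphorylated and forms tangles, and with age the hippocampus loses neurons while astrocytes and microglia become reactive. Interferons signal through receptors that activate JAK kinases, STAT proteins and interferon regulatory factors (IRFs), which then switch on antiviral genes. Microglia, the resident phagocytes of the brain, use integrins, lectins and Fc receptors to take up debris.

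Counted reads per library were 16214938 to 21797808 in PS19 and 15743147 to 24110989 in WT. Mitochondrially encoded genes took 16.1% of the reads in PS19 replicate 3 and 33.9% in WT replicate 3, and 3.27% to 6.04% in the other 6 libraries. Replicates 3 and 4 lay apart from replicates 1 and 2 in both groups on the first principal component of the 9-month libraries, which held 52.0% of the variance. Levels are given as CPM, reads scaled to a common library size, on TMM-scaled library sizes, and differences as log2 of PS19 over WT. Kdm1a, the Lsd1 gene, which both groups carry intact, averaged 53.0 ± 5.68 CPM in PS19, against 55.1 ± 5.09 CPM in WT libraries (SD, n = 4 each). Of the 10 hippocampal neuron markers all 10 were measured, and their summed level was 885 to 1472 CPM in PS19 and 1122 to 1586 in WT. By Xist and Y-linked genes all 8 libraries were male-type.

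Genes higher in the 9-month PS19 hippocampus than in WT included interferon-response, chemokine, phagocyte and reactive-glia genes. Of the 187 genes DESeq2 called higher, 31 were on 1 of the 25 function lists and 156 on no list. How many passed a test depended on the tool. The quasi-likelihood test of edgeR, with Benjamini-Hochberg adjustment over 20122 genes, called 1 gene (0.00497%) at an adjusted p under 0.05 and 787 at an unadjusted p under 0.05. With the replicate number as a block it called 5 (0.0248%), and without the block it called 146 when PS19 replicate 2 was left out and 2 when PS19 replicate 3 was. DESeq2 called 187 genes higher (0.938%) and 4 lower (0.0201%) of 19934, and with the replicate block 327 higher (1.63%) and 38 lower (0.189%) of 20122, 1.81% in both directions. The fits with and without the block shared 182 of the higher and all 4 of the lower calls. DESeq2's total of 191 was 66 without PS19 replicate 1, 82 without PS19 replicate 4, 117 without WT replicate 1 and 115 without WT replicate 4, and was 338 without PS19 replicate 2. Below, rose and fell refer to DESeq2's calls unless another tool is named. The edgeR adjusted p of the genes DESeq2 called higher ran from 0.0615 to 0.477, apart from the 1 gene edgeR called.

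**Figure D1:**
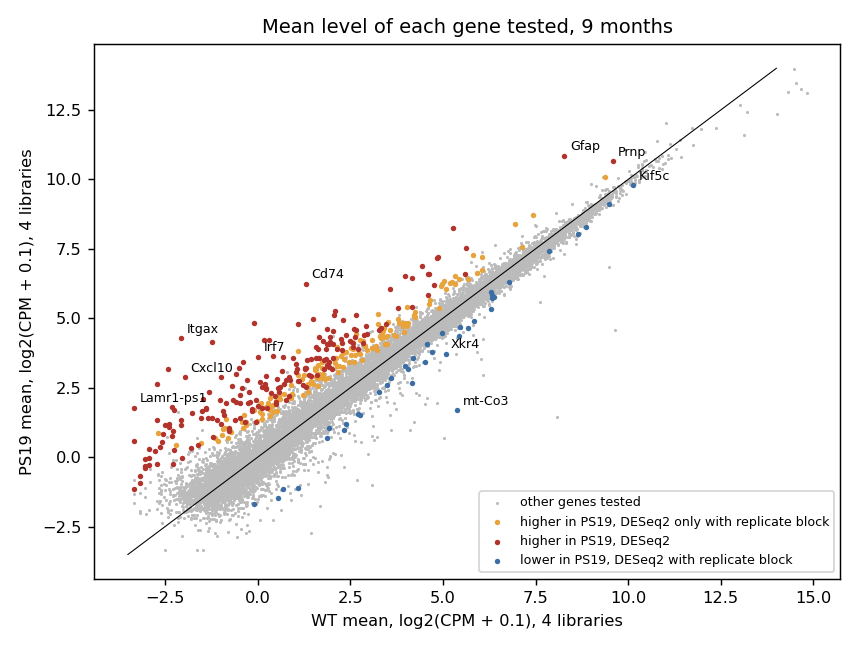
Mean level of each of the 20122 genes tested in PS19 (vertical axis) against WT (horizontal axis), both as log2(CPM + 0.1) over 4 libraries, with the line of equal level. The 187 genes DESeq2 called higher had a median level of 7.28 CPM in PS19 and 1.34 CPM in WT, and the 38 genes called lower with the replicate block 12.5 CPM in PS19 and 24.9 CPM in WT.

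The 4 PS19 libraries did not respond alike. Of the 187 genes that rose, the highest of the 8 libraries was PS19 replicate 1 for 100 genes, replicate 4 for 79, replicate 3 for 7 and replicate 2 for 1. PS19 replicate 1 was above every WT library for 187 of them, replicate 4 for 186, replicate 3 for 174 and replicate 2 for 113. Against the WT library of the same number, the median log2 difference of these genes (CPM + 0.5) was 2.45 in replicate 1, 0.36 in replicate 2, 1.35 in replicate 3 and 2.24 in replicate 4, and over all genes tested it was -0.07, 0.02, 0.04 and 0.00. All 4 PS19 libraries lay above all 4 WT libraries for 102 of the 187 genes, against 201 (0.999%) of all genes tested, and 93 (0.462%) had all 4 PS19 libraries below. The genes chosen were those that differed in these libraries, so the counts describe them and test nothing.

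The genes that rose had a median level of 7.28 CPM in PS19 and 1.34 CPM in WT, and 81 of the 187 (43.3%) averaged under 1 CPM in WT, against 19.9% of all genes tested. The log2 differences ran from 0.98 to 8.41 with a median of 2.38. Of the 187, 177 were protein-coding, and 9 were predicted genes or annotated as pseudogenes. In bulk tissue, more cells of a type and more RNA per cell cannot be told apart. Microglial markers that mark the resting state summed to 953, 511, 437 and 837 CPM in PS19 replicates 1 to 4 and to 453, 467, 460 and 406 CPM in WT. Of the 8 microglial markers 7 were higher in PS19 (median log2 difference 0.62), as were 8 of 8 astrocyte markers (0.32), 8 of 8 oligodendrocyte markers (0.41) and 5 of 5 ependymal markers (0.77). Oligodendrocyte markers summed to 5222 to 6709 CPM in PS19 and 3697 to 5091 CPM in WT, without overlap, and ependymal markers to 29.6 to 58.4 CPM in PS19 and 13.6 to 42.8 CPM in WT. DESeq2 called no marker of these 4 lists, and their part in the results below was not tested.

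The 1 gene edgeR called without the block was Lamr1-ps1, a processed pseudogene of the laminin receptor gene (chromosome 2, 131904086 to 131904959, GRCm38). It had 50, 78, 62 and 67 reads in PS19 replicates 1 to 4 and 0 in every WT library. Against a floor of 3 reads over the 4 WT libraries it was at least 92.8-fold higher in PS19 (edgeR adjusted p = 0.00171). The 11-month libraries separated in the same way, with 59, 77 and 57 reads in PS19_HA and 0 in every WT_HA library, at least 64.4-fold higher. The pseudogene ends 4969 bases before the start of Prnp on the same strand, and Prnp is the gene whose promoter drives the transgene. Prnp itself stood at 1439, 1751, 1675 and 1626 CPM in PS19 against 908, 842, 663 and 651 CPM in WT, a log2 difference of 1.06 (SE 0.19; DESeq2 adjusted p = 3.41e-05). Mapt, the mouse tau gene, averaged 587 ± 128 CPM in PS19, against 465 ± 68.3 CPM in WT libraries (SD, n = 4 each) and was not called. Transgene reads that align to mouse genes cannot be separated here, and how reads that align to several places were counted is not given in the sources used here, so the values of pseudogenes and close copies are uncertain.

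Interferon-response genes rose in PS19, while the interferon ligands looked at stayed below the filter on low counts. Of 11 interferon ligand and receptor genes, the ligands Ifnb1, Ifna2, Ifna4, Ifnk and Ifng did not pass the filter on low counts, and none of the 6 measured receptor genes was called. Their 6 differences were all above 0 with a median of 0.39. Among 18 JAK, STAT and IRF transducers, 3 rose, and 5 with the block. The median of the 18 was 0.63, against -0.02 over all genes tested.

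Irf7, the factor that amplifies type I interferon responses, stood at 32.3, 3.86, 4.96 and 7.78 CPM in PS19 and at 0.881, 1.16, 0.487 and 1.13 CPM in WT. All 4 PS19 libraries lay above the WT libraries, and replicate 1 was far above the other PS19 libraries. Its log2 difference was 3.71 (SE 0.62; DESeq2 adjusted p = 4.04e-06). Irf8, a factor of myeloid cells, averaged 18.2 ± 11.0 CPM in PS19, against 5.57 ± 1.54 CPM in WT libraries (SD, n = 4 each). Irf9 and Stat3 passed only with the block. DESeq2 lost the call of Irf8 without PS19 replicates 1 or 4 or WT replicate 4 (adjusted p 0.0685 to 0.174), while Irf7 was called in all 8 fits that left out 1 library.

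Among 14 feedback inhibitors of cytokine signalling 2 rose. Usp18, the protease that removes ISG15 and blocks the interferon receptor, had 15.8, 1.98, 2.58 and 6.61 CPM in PS19 and 0.649, 0.706, 0.681 and 0.849 CPM in WT. The groups did not overlap, and the log2 difference was 3.21 (SE 0.57; DESeq2 adjusted p = 1.87e-05). Ptpn6, the SHP-1 phosphatase of blood and myeloid cells, averaged 11.1 CPM in PS19 and 3.39 in WT, and its call was lost in 5 of the 8 fits that left out 1 library (without PS19 1 or 4 or WT 2, 3 or 4; adjusted p 0.0541 to 0.317). Socs3, which damps IL-6 family receptors, passed only with the block. The other 11 did not pass either fit, and the median of the list was 0.07.

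Among the function lists, that of interferon-linked enzymes for ISG15, ubiquitin or ADP-ribose, picked for that link, had the most calls. Of 16 genes, 16 were higher in PS19, 7 rose, and 14 passed with the block, with a list median of 1.31. Trim30a, a ubiquitin ligase that limits inflammatory signalling in mice, averaged 11.7 ± 7.86 CPM in PS19 and 1.85 ± 0.605 in WT (log2 difference 2.63, SE 0.52; DESeq2 adjusted p = 0.000228). Parp14, an ADP-ribosyltransferase, averaged 15.0 ± 8.06 against 3.49 ± 1.13 CPM (2.08, SE 0.43). Rnf213, a giant ubiquitin ligase, averaged 41.2 ± 24.4 against 13.7 ± 1.97 CPM (1.57, SE 0.36; SD, n = 4 each for all 3 genes). Without PS19 replicate 1 the adjusted p of Rnf213 was 0.0514, and the calls of Trim30a and Parp14 held in all 8 such fits. Uba7, the enzyme that activates ISG15, passed only with the block, and Rnf114 and Ube2l6 passed in neither fit.

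Genes of nucleic acid sensing were among the rises that edgeR also called with the block. Zbp1, the sensor of Z-form nucleic acid that triggers necroptosis (chromosome 2, 173206612 to 173218923), had 4.49, 0.365, 1.84 and 1.78 CPM in PS19 and 0.139, 0.0415, 0 and 0.121 CPM in WT. Ifi209, an interferon-inducible gene of the PYHIN family (chromosome 1, 173630917 to 173647928), had 1.44, 0.313, 2.24 and 1.52 CPM in PS19 and 0.0463, 0, 0.0973 and 0.121 CPM in WT. In both genes every PS19 library lay above every WT library, with PS19 replicate 2 the closest. The log2 differences were 4.65 (SE 0.87) for Zbp1 and 4.43 (SE 0.92) for Ifi209, and both were among the 5 genes edgeR called with the replicate block. The other 14 measured genes of the inflammasome, pyroptosis and necroptosis list did not rise without the block, Naip2 passed with it, and the list median was 0.76.

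Further members of these families were chosen after their values were seen. The PYHIN genes Ifi204, Ifi207, Ifi211 and Ifi213, which lie beside Ifi209, also rose, with log2 differences of 3.66, 2.92, 5.05 and 4.58. The call of Ifi204 was lost without PS19 1, 3 or 4 or WT 1, 2 or 4 (adjusted p 0.0792 to 0.206), that of Ifi207 without PS19 1 or 4 or WT 1, 2 or 4 (0.0519 to 0.0855), and that of Ifi213 without PS19 1, 3 or 4 or WT 1, 2 or 3 (0.0533 to 0.183). DESeq2 gave Ifi211 no adjusted p without PS19 1 or 4 or WT 2 or 4. The oligoadenylate synthase family, with products that activate RNase L or bind viral RNA, rose in all 7 members looked at (Oas1a, Oas1b, Oas1g, Oas2, Oas3, Oasl1, Oasl2). Of these, Oas1b is annotated as a polymorphic pseudogene. Oasl2 was the most abundant, at 31.7 ± 30.1 CPM in PS19, against 2.74 ± 1.16 CPM in WT libraries (SD, n = 4 each), and its call held in all 8 fits that left out 1 library. Without PS19 replicate 1, Oas1a, Oas1b and Oasl1 had adjusted p of 0.151, 0.407 and 0.0928. Oas2 lost its call without PS19 1 or 4 or WT 1, 3 or 4 (0.077 to 0.923), Oas3 without PS19 4 or any 1 WT library (0.0661 to 0.208), and Oas3 had no adjusted p without PS19 1. Oas1g passed the filter on low counts in 3 of the 8 fits and lost its call in 1 of them, without WT 3 (0.0922). These genes are close copies of each other and could share reads. Ifit1 (12.4 ± 7.80 against 1.23 ± 0.471 CPM), Ifi44 (9.12 ± 6.78 against 0.61 ± 0.309) and Mx1 (3.42 ± 2.62 against 0.103 ± 0.138), all textbook interferon targets, rose in PS19 over WT in all 8 such fits (SD, n = 4 each).

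Promoters of 6 genes that rose are shown because they cover the genes edgeR called with the block that have a RefSeq window (Ifi209, Cxcl10, Itgax), the amplifier Irf7, a classical interferon target (Ifit1) and the phagocyte oxidase subunit Cybb. Each runs from 250 bases before to 50 bases after the RefSeq start (GRCm38.p6), on the strand of the gene. Capitals mark matches, on either strand, to the core of the interferon response element, which is GAAA followed after any 2 bases by GAAA. Ifi209 lies at chr1:173630609-173630908 (+), Cxcl10 at chr5:92348840-92349139 (-), Itgax at chr7:128129300-128129599 (+), Ifit1 at chr19:34640639-34640938 (+), Irf7 at chr7:141266375-141266674 (-) and Cybb at chrX:9469275-9469574 (-).
Cxcl10: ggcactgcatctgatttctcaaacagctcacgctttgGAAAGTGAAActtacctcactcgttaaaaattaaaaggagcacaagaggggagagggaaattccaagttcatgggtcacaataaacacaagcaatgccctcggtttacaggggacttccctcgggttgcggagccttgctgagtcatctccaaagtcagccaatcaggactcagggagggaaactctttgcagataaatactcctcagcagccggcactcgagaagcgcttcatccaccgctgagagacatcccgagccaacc
Ifit1: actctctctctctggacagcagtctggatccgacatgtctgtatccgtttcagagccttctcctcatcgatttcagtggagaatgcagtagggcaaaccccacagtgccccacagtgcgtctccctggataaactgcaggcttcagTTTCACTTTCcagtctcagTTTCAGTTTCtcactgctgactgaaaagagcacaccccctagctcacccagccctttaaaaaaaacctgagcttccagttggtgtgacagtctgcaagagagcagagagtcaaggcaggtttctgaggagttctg
Cybb: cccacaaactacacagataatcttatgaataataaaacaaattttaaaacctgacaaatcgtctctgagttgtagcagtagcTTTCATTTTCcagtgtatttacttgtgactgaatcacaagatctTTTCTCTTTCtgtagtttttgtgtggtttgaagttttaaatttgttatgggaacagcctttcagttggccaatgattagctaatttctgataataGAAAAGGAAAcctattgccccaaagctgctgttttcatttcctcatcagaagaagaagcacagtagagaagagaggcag
Irf7: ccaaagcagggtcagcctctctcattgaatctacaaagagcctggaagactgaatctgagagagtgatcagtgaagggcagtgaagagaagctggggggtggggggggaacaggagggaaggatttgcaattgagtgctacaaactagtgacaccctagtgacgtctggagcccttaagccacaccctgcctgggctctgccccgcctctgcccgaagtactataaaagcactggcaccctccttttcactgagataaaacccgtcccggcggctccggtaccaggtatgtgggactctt
Ifi209: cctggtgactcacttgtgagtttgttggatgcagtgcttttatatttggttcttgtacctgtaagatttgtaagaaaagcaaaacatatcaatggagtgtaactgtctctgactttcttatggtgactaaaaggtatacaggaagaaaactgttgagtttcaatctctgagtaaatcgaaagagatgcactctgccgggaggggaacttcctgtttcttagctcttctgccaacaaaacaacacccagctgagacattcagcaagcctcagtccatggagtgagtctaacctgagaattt
Itgax: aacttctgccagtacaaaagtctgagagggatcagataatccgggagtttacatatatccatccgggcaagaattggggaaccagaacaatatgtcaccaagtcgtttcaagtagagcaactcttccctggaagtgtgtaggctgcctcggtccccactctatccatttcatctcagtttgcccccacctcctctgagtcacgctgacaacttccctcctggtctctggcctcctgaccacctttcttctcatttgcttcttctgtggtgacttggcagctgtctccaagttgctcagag

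Cxcl10 held 1 match, 213 bases before the start. Ifit1 held 2, at 104 and 85 bases, and Cybb held 3, at 168, 124 and 29 bases. The windows of Irf7, Ifi209 and Itgax held none, which says only that these letters are not in this window. Of the 187 genes that rose, 132 matched 150 windows by symbol, and this core was in 34 of these (22.7%), against 3.03% of the 16653 windows of all genes tested and 3.44% of all 32851 windows. The other patterns looked for, again on both strands, were TTCNNNGAA (the STAT element), in 9.33% of the windows of genes that rose against 6.90% of those tested, GAGGAA (the ETS core bound by PU.1), in 34.7% against 26.7%, and GGG followed after any 5 bases by CC (part of an NF-kB site), in 63.3% against 64.3%. The interferon core and GAGGAA were together in 11 of the 150 windows and overlapped in 4. The shares describe genes picked by their difference in these libraries and carry no test.

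Chemokines and surface receptors of phagocytes were among the largest rises. Cxcl10, the ligand that draws CXCR3-bearing lymphocytes (chromosome 5, 92346638 to 92348889), had 13.4, 2.40, 4.35 and 9.00 CPM in PS19 and 0.0463, 0.332, 0 and 0.242 CPM in WT. Itgax, the CD11c integrin of dendritic cells and activated microglia (chromosome 7, 128129547 to 128150657), had 15.9, 2.82, 3.33 and 56.1 CPM in PS19 and 0.0927, 0.249, 0.0973 and 0.121 CPM in WT. Neither gene overlapped between the groups, which the rule for naming the largest rises required. Cxcl10 was highest in PS19 replicate 1 and Itgax in replicate 4. The log2 differences were 5.39 (SE 0.72; DESeq2 adjusted p = 3.82e-10) for Cxcl10 and 7.04 (SE 0.88; DESeq2 adjusted p = 2.56e-11) for Itgax. Both were called by edgeR with the replicate block. DESeq2 gave Itgax no adjusted p without PS19 replicate 1 and called it in the other 7 fits.

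**Figure D2:**
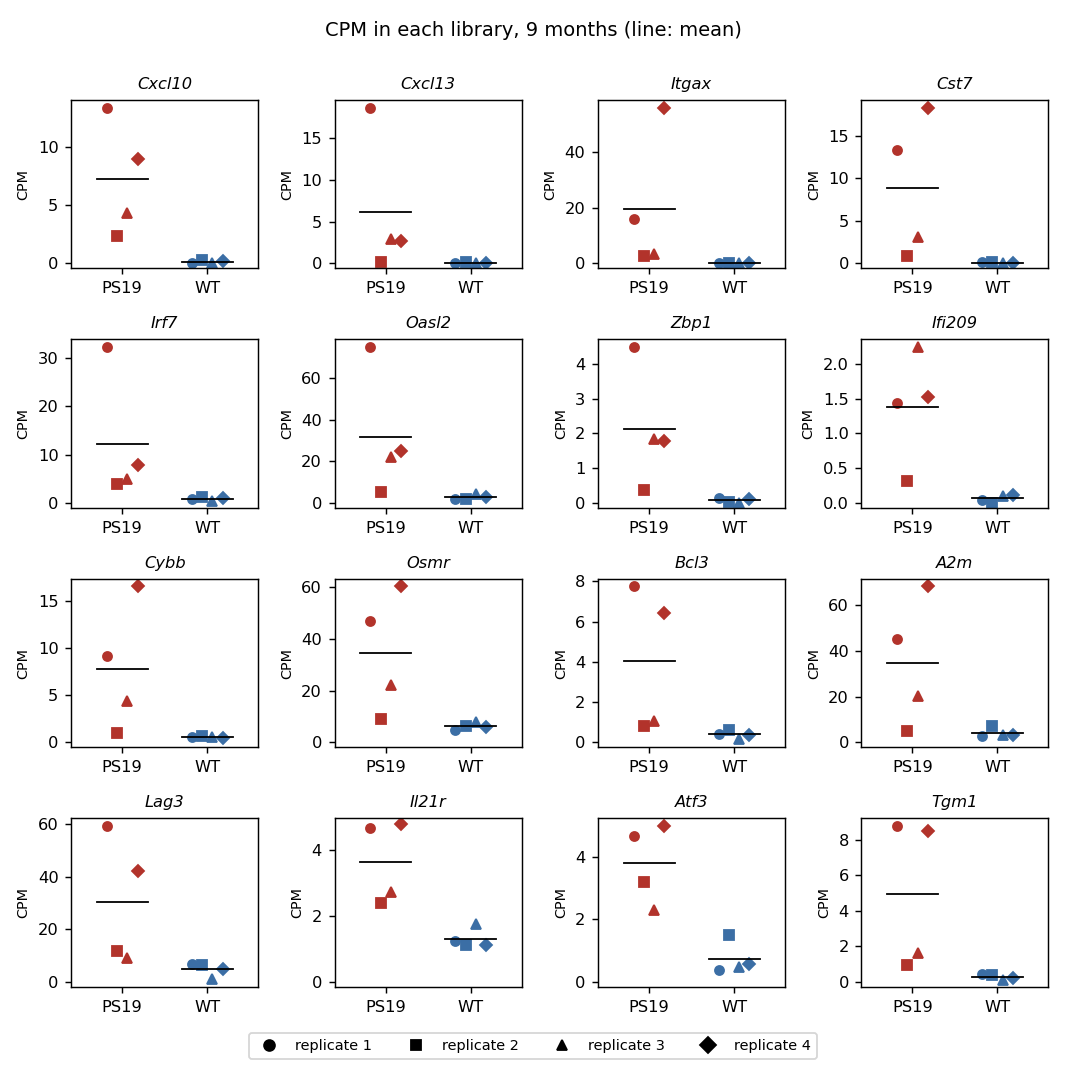
CPM of 16 genes in each of the 4 PS19 libraries (left, red) and the 4 WT libraries (right, blue), with symbols for the replicate number and a line at the mean. PS19 replicates 1 and 4 are the highest for most genes and PS19 replicate 2 lies closest to WT, as for Cxcl10 (13.4, 2.40, 4.35 and 9.00 CPM in PS19).

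The remaining genes of the 12 largest rises that were named were of the same kinds. The rule for names asked for a mean of 1 CPM or more in either group. Clec7a, the beta-glucan receptor dectin-1, would rank among the 12 but is annotated as a polymorphic pseudogene and so fell outside that rule. It is described with the lectins, chosen after its values were seen. Cxcl13, which attracts B cells, had 18.6 CPM in PS19 replicate 1, 0.209 to 2.92 CPM in the other PS19 libraries and at most 0.125 CPM in WT. Cst7, the cystatin F inhibitor of lysosomal proteases, averaged 8.90 ± 8.29 CPM in PS19 and 0.0864 ± 0.079 in WT. The antigen-presentation genes H2-Aa and Cd74 averaged 28.1 ± 43.2 and 76.0 ± 103 CPM in PS19 against 0.83 ± 0.367 and 2.38 ± 1.93 in WT (SD, n = 4 each). H2-Aa reached 92.6 CPM in PS19 replicate 4 and 1.77 to 12.6 CPM in the other PS19 libraries. Fgr, a Src-family kinase, the chemokines Ccl3 and Ccl5, the sialic acid receptor Cd22, the Fc receptor Fcgr4 and Mx1 complete the 12, with log2 differences of 4.78 to 5.34. All 12 were called in all 8 DESeq2 fits that left out 1 library except Itgax and Ccl5. Ccl5 had no adjusted p without PS19 1 and 0.0564 and 0.0628 without WT 1 or WT 2.

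Some of these genes are best known from lymphocytes, whose own markers ranged from a few reads to well counted. Of 10 T and NK cell markers, 8 had at most 20 reads over the 8 libraries together, Cd3e with 13 reads over the 4 PS19 and 5 over the 4 WT libraries, while Cd4 had 41 reads in PS19 and 205 in WT and Trac 34 in PS19 and 40 in WT. Of 8 B and plasma cell markers, 4 had at most 20 reads. The immunoglobulin genes Ighm and Igkc had 1413 and 138 reads in PS19 and 863 and 17 in WT, and Jchain had 90 in PS19 and 87 in WT. Of 7 neutrophil markers 5 had at most 20 reads, and Mmp8 was at 0 in every library. T and NK cell markers summed to 1.04 to 2.26 CPM in PS19 and 1.02 to 11.1 CPM in WT, B and plasma cell markers to at most 29.9 CPM in PS19 and 19.4 CPM in WT, and neutrophil markers to 0.217 to 0.816 CPM in PS19 and 0.292 to 1.34 CPM in WT. Border macrophage and monocyte markers summed to 18.8, 3.55, 6.73 and 9.08 CPM in PS19 and to 4.91, 3.82, 6.42 and 4.85 CPM in WT, highest in PS19 replicate 1, and their part in the rises was not tested.

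Receptors of the SLAM family also rose, in a group chosen after its values were seen. Ly9, Cd84, Cd48, Slamf6 and Slamf8 had log2 differences of 3.95, 2.98, 2.95, 2.60 and 2.53. Cd84 was the most abundant of them, with 11.5, 2.30, 9.92 and 24.2 CPM in PS19 and 1.11, 0.914, 1.85 and 2.101 CPM in WT. Ly9 and Cd84 were called in all 8 fits that left out 1 library. The call of Cd48 was lost without PS19 4 or WT 1 (adjusted p 0.0542 and 0.2), that of Slamf8 without PS19 1 or 4 or WT 1, 2 or 4 (0.0538 to 0.329), and that of Slamf6 in every such fit except those without PS19 2 or 3 (0.0882 to 0.518).

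Some receptors and a ligand that restrain or steer lymphocytes, again chosen after their values were seen, were also higher. Lag3, a checkpoint receptor, averaged 30.6 ± 24.4 CPM in PS19 and 4.81 ± 2.65 in WT, with a log2 difference of 2.64 and an adjusted p of 0.117 by DESeq2 without PS19 replicate 1. Il21r, the IL-21 receptor, averaged 3.64 ± 1.26 CPM in PS19 and 1.31 ± 0.298 in WT and was called in all 8 fits that left out 1 library (SD, n = 4 each). Cd274, the PD-L1 ligand, had a log2 difference of 1.66 and lost its call without PS19 1 or 4 or WT 1 or 2 (0.0513 to 0.133). Havcr2, the TIM-3 receptor, had 1.52 and kept its call only without PS19 replicate 2 (0.0755 to 0.498 in the other 7 fits).

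The phagocyte oxidase, which makes superoxide in microglia and other phagocytes, had the highest list median. Of 9 genes 4 rose and 6 passed with the block, with a median log2 difference of 1.61. Cybb, its catalytic gp91phox subunit, had 9.19, 1.04, 4.35 and 16.6 CPM in PS19 and 0.556, 0.664, 0.584 and 0.444 CPM in WT. The groups did not overlap, the log2 difference was 3.76 (SE 0.65; DESeq2 adjusted p = 1.04e-05), and the call held in all 8 fits that left out 1 library. The cytosolic subunit Ncf4 averaged 2.54 ± 1.89 CPM in PS19, against 0.616 ± 0.203 CPM in WT libraries (SD, n = 4 each), and Hvcn1, the proton channel that supports the oxidase, 3.36 CPM in PS19 against 0.977 in WT. DESeq2 called Ncf4 in 3 of the 8 fits that left out 1 library (adjusted p 0.0684 to 0.479 without PS19 1 or 4 or WT 1, 3 or 4). Cyba, the partner of Cybb in the membrane, and Ncf1 passed only with the block. The widely used GTPases Rac1 and Rap1a, which also serve the oxidase, had log2 differences of -0.11 and -0.24 and were not called.

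Among 15 measured integrins and leukocyte adhesion genes 3 rose, Itgax, Icam1 and Itgb2. Itgb2, the CD18 chain that pairs with CD11c, averaged 17.3 ± 11.4 CPM in PS19 and 4.76 ± 1.19 in WT, and Icam1, a ligand of CD18 integrins, 6.93 ± 5.24 against 1.34 ± 0.751 (SD, n = 4 each). Itgb2 lost its call without PS19 1 or 4 (adjusted p 0.0851 and 0.108), and Icam1 without PS19 1 or 4 or WT 4 (0.0518 to 0.24). The list median was 0.50. In the list of C-type lectin and scavenger receptors 11 of 18 genes were measured, Clec7a rose (17.8 ± 18.9 CPM in PS19 against 0.33 ± 0.151 in WT, SD, n = 4 each, log2 difference 5.74), Clec5a passed only with the block, and the median was 0.96.

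**Figure D3:**
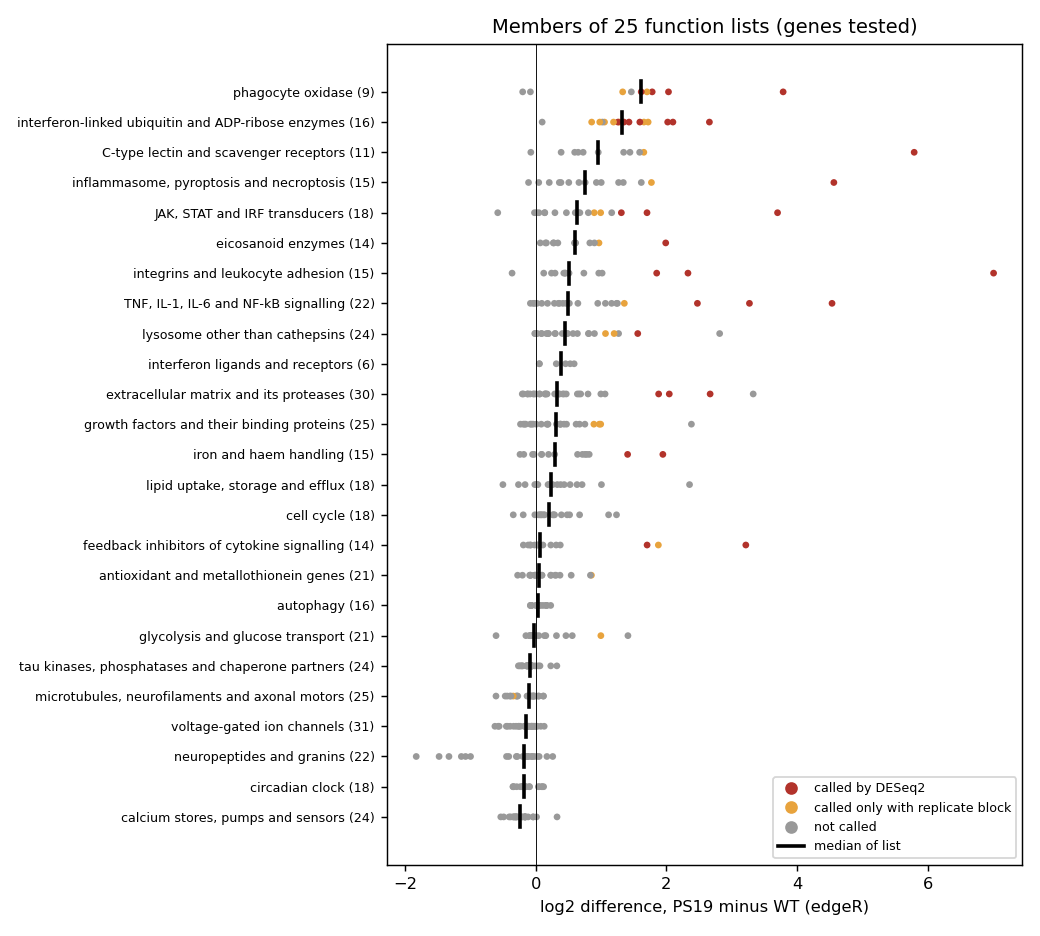
Log2 difference of PS19 minus WT by edgeR for the measured members of 25 function lists, 1 point per gene, coloured by DESeq2's call, with a black bar at the median and the number of genes tested in brackets. Medians run from 1.61 (phagocyte oxidase) to -0.24 (calcium stores, pumps and sensors), against -0.02 over all genes tested.

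Genes for a receptor, a nuclear cofactor and an antagonist of cytokine signalling rose. Of 22 measured genes of TNF, IL-1, IL-6 and NF-kB signalling 3 rose, Tnfrsf1a, a TNF receptor, passed only with the block (DESeq2 adjusted p = 0.0153), and the median was 0.49. Osmr, the oncostatin M receptor, had 46.8, 8.87, 22.0 and 60.3 CPM in PS19 and 4.73, 6.27, 7.78 and 6.14 CPM in WT. Every PS19 library was above every WT library, and the log2 difference was 2.44 (SE 0.48; DESeq2 adjusted p = 0.00018). Bcl3, a nuclear cofactor of NF-kB, averaged 4.03 ± 3.58 CPM in PS19, against 0.40 ± 0.177 CPM in WT libraries (SD, n = 4 each), and both it and Osmr were called in all 8 fits that left out 1 library. Il1rn, the antagonist of the IL-1 receptor, rose at a very low level, 0.423 ± 0.238 against 0.0116 ± 0.0232 CPM (SD, n = 4 each), and without WT 3 had an adjusted p of 0.068 by DESeq2, which gave none without PS19 1 or 4 or WT 2 or 4. Il1a and Il1b had log2 differences of 1.23 and 1.25 and were not called, and Tnf and Il6 did not pass the filter on low counts.

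Transcription factors outside the lists were looked at after their values were seen. Atf3, an immediate stress-response factor, averaged 3.79 ± 1.26 CPM in PS19 and 0.729 ± 0.517 in WT, and Nlrc5, the activator of MHC class I genes, 6.46 ± 5.38 against 0.94 ± 0.324 (SD, n = 4 each). Both were called in all 8 fits that left out 1 library. Tgif1, a repressor in TGF-beta signalling, had a log2 difference of 1.35 (adjusted p 0.0533 without PS19 1), and Elf4, an ETS factor, 1.52 (0.0538 to 0.144 without PS19 1 or 4 or WT 1).

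The extracellular matrix and protease list had 3 rises among 30 genes and a median of 0.32. Cd44, the hyaluronan receptor, averaged 21.0 ± 18.4 CPM in PS19 and 5.11 ± 1.80 in WT, and Lox, which crosslinks collagen, 2.80 ± 2.59 against 0.434 ± 0.187 (SD, n = 4 each). DESeq2 lost Cd44 without PS19 1 or 4 or WT 1, 2 or 4 (adjusted p 0.0648 to 0.518) and Lox without PS19 1 or 4 or WT 1, 3 or 4 (0.091 to 0.606), and Lox had an adjusted p of 0.0647 with the block.

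Secreted proteins chosen after their values were seen included A2m, the broad protease trap alpha-2-macroglobulin, at 45.3, 5.22, 20.5 and 68.4 CPM in PS19 and 2.64, 7.18, 3.11 and 3.47 CPM in WT. PS19 replicate 2 lay inside the WT range and the other PS19 libraries above it. The log2 difference was 3.05 (SE 0.61; DESeq2 adjusted p = 0.00036). Ptx3, a soluble pattern receptor, Serpinf2, the plasmin inhibitor, and Pros1, the protein S ligand of TAM receptors, had log2 differences of 2.16, 2.71 and 1.32. Serpinf2 lost its call without PS19 1 or 4 (0.151 and 0.214), Ptx3 without PS19 1 or 4 or WT 1, 3 or 4 (0.0537 to 0.258) and Pros1 without PS19 1 or 4 or WT 1, 2 or 4 (0.078 to 0.353). Tgm1, a transglutaminase that crosslinks proteins, averaged 4.95 ± 4.24 CPM in PS19, against 0.305 ± 0.168 CPM in WT libraries (SD, n = 4 each) and was called in all 8 such fits, as was Slc43a3, a purine transporter, with a log2 difference of 2.73.

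Genes of the actin cytoskeleton, another group chosen after its values were seen, rose together with the reactive-glia filaments Gfap and Vim. Msn (moesin), which links actin to the membrane, averaged 57.4 ± 22.3 CPM in PS19, against 24.3 ± 2.45 CPM in WT libraries (SD, n = 4 each) and was called in all 8 fits that left out 1 library. Flnc, the filamin of muscle, averaged 19.9 ± 19.1 against 3.76 ± 2.64 CPM (SD, n = 4 each) and lost its call without PS19 1 or WT 1, 3 or 4 (adjusted p 0.079 to 0.9), with none given without PS19 4. The leukocyte proteins Lcp1 and Capg had log2 differences of 1.45 and 2.49 and lost their calls without PS19 1 or 4 (0.122 and 0.147 for Lcp1, 0.108 and 0.136 for Capg). Gfap reached 3163, 632, 782 and 2852 CPM in PS19 against 390, 323, 216 and 317 CPM in WT.

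Lists of lysosomal, iron and eicosanoid genes had few calls. Of 24 lysosomal genes other than cathepsins 22 were higher in PS19, with a list median of 0.44. Only Cd68, a glycoprotein of phagocyte lysosomes, rose, with 17.3 ± 10.4 CPM in PS19 and 5.83 ± 1.79 in WT. Grn (progranulin) and Cd63 passed only with the block. In iron and haem handling 2 of 15 rose, Hmox1 (haem oxygenase 1), at 9.02 ± 4.05 against 3.39 ± 0.627 CPM, and Slc11a1, the phagosomal iron exporter, at 9.01 ± 6.76 against 2.31 ± 1.37 (list median 0.29). In eicosanoid enzymes 1 of 14 rose, Tbxas1 (thromboxane synthase), at 5.48 ± 4.11 against 1.36 ± 0.64 CPM, and all 14 differences were above 0 with a median of 0.60 (SD, n = 4 each). Hpgds, a prostaglandin D synthase, passed only with the block (DESeq2 adjusted p = 0.0148). Leaving out PS19 1 or 4 ended the calls of these 4 genes (adjusted p 0.0969 and 0.106 for Hmox1, up to 0.375 for Cd68, 0.638 for Slc11a1 and 0.62 for Tbxas1), and leaving out WT 2, 3 or 4 ended those of Cd68 and Tbxas1, and WT 1, 3 or 4 that of Slc11a1.

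Growth factors and their binding proteins had no rise without the block, and Tgfbr2, Tgfb1 and Csf1 passed with it (25 genes, median 0.32). Csf1, the microglial growth factor, stood at 45.4 ± 16.9 CPM in PS19, against 24.5 ± 5.05 CPM in WT libraries (SD, n = 4 each). Lipid handling (18 genes, median 0.23), the cell cycle (18, 0.20) and autophagy (16, 0.03) had no call in either fit. Antioxidant genes (21, 0.05) had 1 call with the block, Nfe2l2 (NRF2), and glycolysis (21, -0.03) had 1, Hk2 (hexokinase 2). Its other 20 members, among them the neuron-enriched Pfkm and Eno2, were not called.

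Neuronal lists, the list of tau kinases, phosphatases and chaperone partners and the circadian clock list lay slightly below the centre of all genes. None of them had a call without the block. Of 24 genes for calcium stores, pumps and sensors 22 were lower in PS19 (median -0.24), as were 27 of 31 voltage-gated ion channels (-0.14), 18 of 22 neuropeptides and granins (-0.17), 20 of 25 genes of microtubules, neurofilaments and axonal motors (-0.10), 20 of 24 tau kinases, phosphatases and chaperone partners (-0.09) and 13 of 18 circadian clock genes (-0.17). Over all genes tested 10768 of 20122 were lower, with a median of -0.02. Excitatory neuron markers were lower in 6 of 7 (median -0.17), hippocampal neuron markers in 8 of 10 (-0.19) and GABAergic neuron markers in 6 of 6 (-0.20). The part of neuron markers in the values of these lists was not tested. The calcium genes summed to 13980.5, 18238.4, 17893.2 and 13615.2 CPM in PS19 replicates 1 to 4. In WT they summed to 18214.7, 17994.5, 19101.6 and 17683.5 CPM. The median of the microtubule list was 0.04 without WT replicate 1. Kif5c, a kinesin heavy chain of axonal transport, was the 1 gene of these lists that passed with the block. It had 656, 755, 1222 and 918 CPM in PS19 and 904, 840, 1496 and 1261 CPM in WT, lower in each pair of the same number though the groups overlap (log2 difference with the block -0.36; DESeq2 adjusted p = 0.014). Kif5a, another neuronal kinesin, averaged 1804 ± 333 CPM in PS19, against 2745 ± 318 CPM in WT libraries (SD, n = 4 each), without overlap and without a call (DESeq2 adjusted p = 0.64, and 0.282 with the block).

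Among neuropeptides Penk (proenkephalin) stood at 14.6, 14.4, 28.6 and 18.4 CPM in PS19 and at 16.4, 22.1, 154 and 77.7 CPM in WT, and was not called. The high WT values were in replicates 3 and 4. Markers of the striatum, where Penk is abundant, were all 9 lower in PS19 with a median of -1.35, and summed to 237, 208, 148 and 155 CPM in PS19 against 232, 229, 457 and 439 CPM in WT. Their part in the neuropeptide values was not tested. Choroid plexus markers summed to 295 to 2432 CPM in PS19 and 71.5 to 2121 CPM in WT, so the groups overlapped.

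Only 4 genes fell without the block, 1 of them a predicted gene. Ghsr, the ghrelin receptor (chromosome 3, 27371351 to 27378010), had 0.261, 0.209, 0.408 and 0.174 CPM in PS19 and 1.62, 1.37, 1.46 and 0.970 CPM in WT, without overlap and alike within each group. Its log2 difference was -2.41 (SE 0.60; DESeq2 adjusted p = 0.00942), and without PS19 1 or 4 or WT 1 the adjusted p was 0.0651 to 0.116. Capn11, a calpain best known from testis, had 0.305, 0.470, 0.0680 and 0.608 CPM in PS19 and 4.31, 0.706, 2.34 and 0.768 CPM in WT. Its call was lost without PS19 1 or 3 or WT 1 or 3 (0.0572 to 0.297). mt-Co3, a mitochondrially encoded subunit of cytochrome oxidase, had 1.44, 2.09, 4.89 and 4.04 CPM in PS19 and 28.8, 121, 11.9 and 4.97 CPM in WT. Its log2 difference of -3.77 thus rests mostly on WT replicates 1 and 2, although the call held in all 8 fits that left out 1 library. These levels were a very small part of the mitochondrially encoded reads, which took 3.27% to 33.9% of each library. Which reads were assigned to mt-Co3 is not known, so its level and difference are uncertain.

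With the block 38 genes fell, 10 of them predicted genes, pseudogenes or identifiers without a symbol. For these 38 genes each PS19 library was below the WT library of its number, and their median log2 difference within pairs was -1.07, -0.47, -0.90 and -0.48 in replicates 1 to 4. The block was fitted on the same pairs, so these values describe the calls. The genes that fell had a median level of 12.5 CPM in PS19 and 24.9 CPM in WT. Xkr4, an XK-related membrane protein (chromosome 1, 3205901 to 3671498), had 6.88, 9.03, 20.4 and 16.1 CPM in PS19 and 44.3, 16.9, 50.5 and 22.8 CPM in WT, with a log2 difference with the block of -1.45 (DESeq2 adjusted p = 0.00696). Stxbp5l, a tomosyn that restrains vesicle fusion, had -1.04 (DESeq2 with the block, adjusted p = 0.00582), and the potassium channel Kcnh5, the granule-trafficking gene Sytl5 and the zinc finger gene Zfp871 had -1.08, -1.27 and -1.28.

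**Figure D4:**
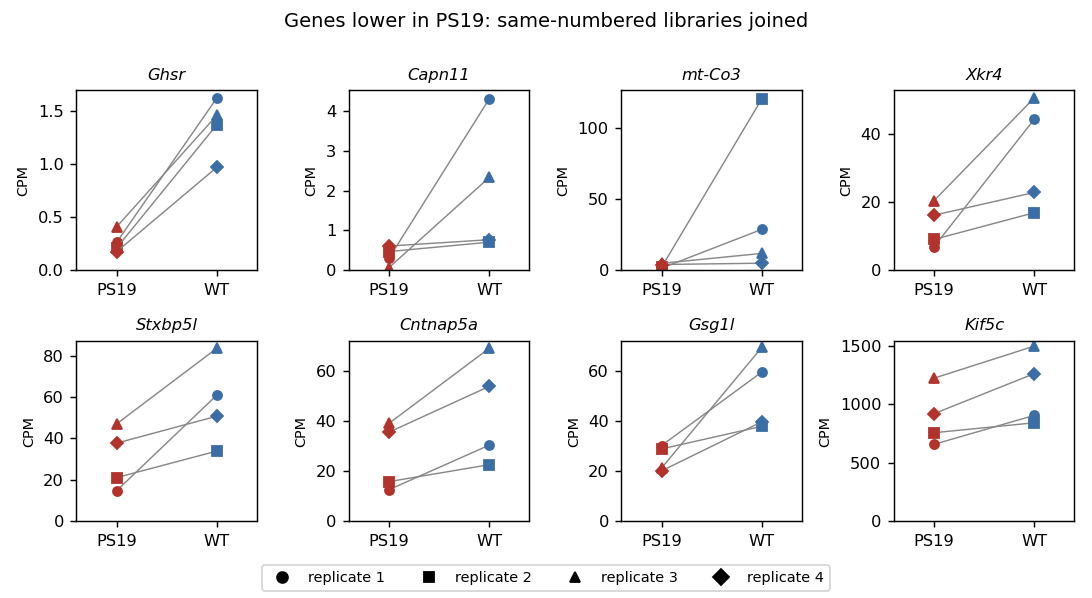
CPM of 8 genes lower in PS19, with PS19 on the left and WT on the right of each panel and lines joining libraries of the same replicate number. Each line is lower at its PS19 end, and for mt-Co3 the WT values run from 4.97 to 121 CPM.

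Other genes called lower with the block were chosen for description after their values were seen. Cntnap5a, a neurexin-like adhesion protein, and Il1rapl1, which organises synapses, had log2 differences with the block of -0.82 and -0.72. Gsg1l, an auxiliary subunit of AMPA receptors, was lower in PS19 without overlap of the groups (-0.99 with the block, DESeq2 adjusted p = 0.0113). Hook1, an adaptor of dynein, had -0.51, and Apc, a scaffold of microtubule ends and the beta-catenin destruction complex, had -0.59. The genes that fell were long: the 29 protein-coding genes called lower with the block spanned a median of 102 kb and 51.7% exceeded 100 kb, against 24.9 kb and 15.2% for all protein-coding genes tested and 17.9 kb and 4.46% for those called higher with the block.

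The genes that rose lay in groups along the chromosomes. Of the 187, 78 (41.7%) had their midpoint within 500000 bases of that of another, against 11.8% of the 20107 genes tested that have a position. On chromosome 1, the PYHIN run from 173566283 to 173913046 held 5 rises among 7 genes tested with a median log2 difference of 3.82, and a run from 170958617 to 171953170 held Fcgr2b, Fcgr4, Fcer1g, Ly9, Cd48, Cd84 and Slamf6 among 36 genes tested with a median of 0.20. On chromosome 11, Ccl5, Ccl9, Ccl6, Ccl3 and Ccl4 rose, 5 of the 5 genes tested from 83525778 to 83664683, with a median of 4.76. On chromosome 5, 5 of 6 genes tested from 120730333 to 120907521 rose, all oligoadenylate synthases. Neighbours of one family count more than once in such a share.

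The 11-month cohort gave the same direction for the genes that rose and were measured there. Of the 187, 177 were measured there and all 177 were higher in PS19_HA than in WT_HA, with a median log2 difference of 1.42, while over all genes tested in both cohorts 9572 of 18981 were higher with a median of 0.00. A gene near 0 in WT_HA passes the filter on low counts only through the other groups. For such genes the direction is therefore partly set by the filter. Genes of the 187 that did not pass there included Ifi211 (0.214 CPM in PS19_HA, 0.185 in WT_HA), Oasl1 (0.346 and 0.265) and Il1rn (0.436 and 0.0345). DESeq2 called 105 genes higher (0.545%) and 16 lower (0.083%) at 11 months, and edgeR called 3 (0.0156%), 2 higher (0.0104%) and 1 lower (0.00518%). The edgeR count was 8 without PS19_HA replicate 1, 1 without WT_HA replicate 1 and 0 without any other 1 of the 6 libraries. Of the 105, 50 were among the 187, which is 26.7% of the 9-month and 47.6% of the 11-month list. Of the 38 genes lower with the block at 9 months, 35 of 38 were lower at 11 months (median -0.43), and 2 were called there, Xkr4 (21.1 ± 1.04 CPM in PS19_HA, 32.7 ± 5.35 in WT_HA) and Stxbp5l, with DESeq2 adjusted p of 0.0256 and 0.0365 (SD, n = 3 each). Ghsr had 0.856, 0.831 and 0.0813 CPM in PS19_HA against 0.381, 1.10 and 1.12 CPM in WT_HA and was not called.

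**Figure D5:**
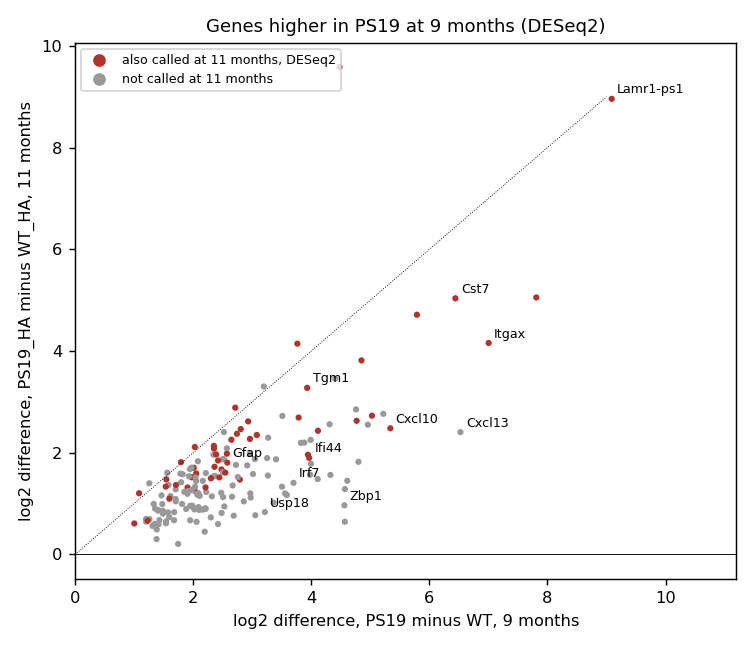
Log2 differences by edgeR of the genes DESeq2 called higher at 9 months, with PS19 minus WT at 9 months on the horizontal axis and PS19_HA minus WT_HA at 11 months on the vertical axis. All 177 points lie above 0, most lie below the dotted line of equal difference, and 50 are also called by DESeq2 at 11 months.

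At 11 months DESeq2 called some interferon genes and not others. Calls alone do not show that the genes responded unequally, and this was not tested. The log2 difference of Irf7, which was not called there, was close to that of Nlrc5, which was. DESeq2 called Ifi44 there (log2 difference 1.89, adjusted p = 0.0215) and Nlrc5 (6.39 ± 1.54 CPM in PS19_HA, 2.29 ± 0.919 in WT_HA, adjusted p = 0.0244; SD, n = 3 each). Irf7 stood at 1.62, 4.42 and 3.37 CPM in PS19_HA and 1.48, 0.735 and 1.28 CPM in WT_HA, Usp18 at 1.17, 2.58 and 2.28 against 1.95, 0.674 and 0.719, and Zbp1 at 0.496, 1.18 and 1.26 against 0.635, 0.367 and 0.48, and DESeq2 called none of the 3 genes there. Itgax, Cst7, Cxcl10 and Cybb were called in both cohorts. No gene's difference between the cohorts passed a test: edgeR called 0 of 20931 genes (119 at an unadjusted p under 0.05) and DESeq2 called 0 of 20818. Age, virus and sex differ between the cohorts together and cannot be told apart, since by Xist and Y-linked genes PS19_HA and WT_HA each held 1 male-type and 2 female-type libraries.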

How the data were processed

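Poly(A) RNA of mouse hippocampus was read as 1 file of whole-number counts per gene and library. Per the submitters' processing notes, the authors used FastQC 0.11.7, Trimmomatic 0.36.5, HISAT2 2.1.0, featureCounts 1.6.0.6 and DESeq2 2.11.40.2 with genome build GRCm38. The counts were deposited without normalization. No source used here gives the strand setting or the treatment of multiple alignments. Groups, replicate numbers and ages came from the labels.

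The main test was edgeR 4.0.16, quasi-likelihood, run under R 4.3.3 (TMM, robust, filterByExpr by group with minimum count 10 and minimum total 15, Benjamini-Hochberg adjusted p under 0.05), over the 14 libraries at 9 months and the 9 at 11 months. DESeq2 1.42.0 and limma 3.58.1 were second tools. DESeq2 left the adjusted p of 188 genes undefined at 9 months, 17 at 11 months and 113 for the difference between cohorts, and these stayed out of its calls. Both tools were tested on simulated counts.

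Same-numbered PS19 and WT libraries deviated together from their group means (correlations 0.64, 0.63, 0.82 and 0.50, each library closest to its own number), and PS19_HA and WT_HA likewise (0.11, 0.30 and 0.25). The numbers were therefore taken to pair the libraries, from the data and not from a stated batch. No pair of libraries within PS19 or WT agreed within sampling noise (smallest chi-square per gene 15.7).

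The comparison, gene lists (25 of functions, 19 of cell type markers) and tests were chosen with earlier results of these data known. Named genes were those edgeR called with or without the block, the 12 largest rises and 12 largest falls by DESeq2 (1 CPM or more on average in either group, with every PS19 library above WT for rises), the 8 largest falls with the block, up to 3 called members per function list, and Prnp, Mapt and Kdm1a. Genes outside this rule were chosen after their values were seen. Some genes that the rule or the lists hold are not reported here by name. Predicted genes and annotated pseudogenes were counted, not named, apart from Lamr1-ps1 and, after their values were seen, Clec7a and Oas1b. Coordinates are from GENCODE for GRCm38, and promoter sequences are from RefSeq (GRCm38.p6). Alternatives covered the tool, scaling, filters, block and left-out libraries. The number of reads limits what low genes can show.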

Additional observations from a re-analysis of the deposited data

Results flagged for a closer look

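In 11 of 284 groups of 4 libraries looked at, 1 library stood apart from the other 3. The rule's chance rate of about 1 in 20 assumes normally distributed values, so it need not hold for CPM near 0. Where the other 3 libraries are at 0, any read sets the flag. In PS19, replicate 1 stood above the other 3 for Cxcl13 (18.6 CPM, others 0.209 to 2.92), Irf7 (32.3 CPM, others 3.86 to 7.78), Oas1g (1.79 CPM, others 0.204 to 0.435) and Oas2 (9.89 CPM, others 1.25 to 2.43). PS19 replicate 4 stood above the others for H2-Aa (92.6 CPM, others 1.77 to 12.6). In WT, replicate 4 stood above the others for Ly9 (0.485 CPM, others 0.166 to 0.195) and, with the other 3 at 0, for Ccl5 (0.121 CPM) and Ifi213 (0.121 CPM). WT replicate 1 was the 1 library with reads of Il1rn (0.0463 CPM) and Ifi211 (0.0463 CPM). WT replicate 3 stood above the others for Ifi44 (1.07 CPM, others 0.415 to 0.51). No gene described moved in opposite directions in every library of the 2 tau groups.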

How the results depend on the processing

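The number of genes edgeR called in PS19 minus WT, 1 in all, depended on the tool and the libraries. It was 191 with DESeq2, 365 with DESeq2 and the replicate block, 5 with the replicate block, 9 with a term for replicates 1 and 2 against 3 and 4, 9 without a filter on low counts, 2 with limma voom and sample weights, and 0 with the PS19 and WT libraries alone, with replicates 1 and 2 alone or with replicates 3 and 4 alone. Leaving out 1 library at a time gave 1 to 146, the highest without PS19 replicate 2, and 1 gene remained the count with RLE scaling, without mitochondrial genes, at a minimum count of 50 and without replicate 3 of both groups. DESeq2 without 1 library, an alternative chosen after the data were seen, gave 66 and 82 without PS19 replicates 1 and 4, 338 and 276 without PS19 replicates 2 and 3, and 117, 141, 153 and 115 without WT replicates 1 to 4. Of the 95 described genes that DESeq2 called higher, 38 were called in all 8 of those fits. At 11 months the count of 3 was 121 with DESeq2, 4 with the replicate block, 5 without a filter and 0 to 8 with 1 library left out (8 without PS19_HA replicate 1). The difference between the cohorts gave 0 calls in every alternative run. Of 4068 gene values under alternatives, 1 changed sign, Kdm1a at 0.0452 with limma voom. These values are of the genes chosen for description, most of them picked for their difference in the same libraries. A kept sign was thus largely set by the choice and tests nothing. Of the calls of DESeq2 without the replicate block, 182 of 187 higher and 4 of 4 lower remained with it. The cause of these changes was not tested. The number of reads limits low genes such as Il1rn.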
